A study of Mus musculus with 12 samples.

Results

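A set of 10 genes of iron handling and metal binding were followed through the LPS response of thioglycollate-elicited peritoneal exudate cells (PECs), macrophage-rich cells that gather in the mouse peritoneum after an irritant. They were chosen by symbol: *Tfrc*, *Slc40a1*, *Slc11a1*, *Slc11a2*, *Fth1*, *Ftl1*, *Lcn2*, *Mt1*, *Mt2* and *Ireb2*. All 10 were found among the 12850 genes of the table, and all 10 passed the filter on low values that 11885 genes passed. PECs came from C57BL/6 mice, either WT or with the *Zc3h12a* S513A/S513A knock-in (S513A), in which alanine replaces a serine of the RNase Regnase-1 in every cell of the animal. Cells were harvested 3.5 days after injection of thioglycollate, cultured, and left at 0 hr or given 100 ng/ml LPS for 4 or 8 hr, with 2 libraries in each of the 6 groups. The age of the mice and the number of animals behind a library are not given in the sources used here.

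A cell takes up iron bound to transferrin through the transferrin receptor (*Tfrc*), moves it out of endosomes through the divalent metal transporter DMT1 (*Slc11a2*), stores it in ferritin shells built of heavy and light chains (*Fth1*, *Ftl1*) and releases it through ferroportin (*Slc40a1*), the known iron exporter of mammalian cells. Iron regulatory proteins, of which IRP2 is encoded by *Ireb2*, bind hairpins called iron-responsive elements (IREs) when iron is scarce: binding in a 5′ UTR blocks translation, and binding in the *Tfrc* 3′ UTR protects the mRNA from decay. Macrophages recycle the iron of aged red cells, and in infection they withhold iron from microbes through NRAMP1 (*Slc11a1*), which pumps metal out of the phagosome, and lipocalin-2 (*Lcn2*), which captures bacterial siderophores. Metallothioneins (*Mt1*, *Mt2*) bind zinc and copper, and their genes are switched on by the zinc-sensing factor MTF1 through metal response elements. Regnase-1 degrades mRNAs that carry stem-loops in their 3′ UTRs, and *Tfrc* mRNA is a known target of it, so the comparison of S513A with WT asks whether the substitution alters the level of this transcript and of its pathway.

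The IRE letters are shown because, in the members that hold a match, they show where the hairpin lies. A match was defined on the transcript strand as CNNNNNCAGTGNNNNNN, with the 5 bases before CAGTG able to pair with the last 5 (G-T pairs allowed). The following stretches from the mm10 annotation hold CAGTG, the main part of the hairpin loop, in capitals.
Fth1 5′ UTR: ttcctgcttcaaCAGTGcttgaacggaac
Ftl1 5′ UTR: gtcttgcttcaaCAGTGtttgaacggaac
Slc40a1 5′ UTR: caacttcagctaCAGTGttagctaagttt
Tfrc 3′ UTR, the first: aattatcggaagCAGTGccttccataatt
Tfrc 3′ UTR, the second: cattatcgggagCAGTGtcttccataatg
Tfrc 3′ UTR, the third: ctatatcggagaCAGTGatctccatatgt
Tfrc 3′ UTR, the fourth: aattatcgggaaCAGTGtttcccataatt

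The site of *Fth1* lies at chr19:9982732-9982760 on the plus strand, that of *Ftl1* at chr7:45459779-45459807 on the minus strand, and that of *Slc40a1* at chr1:45925465-45925493 on the minus strand. Of the annotated coding transcripts, 4 of 5 held the site in *Fth1*, 1 of 2 in *Ftl1* and 1 of 4 in *Slc40a1*. The *Tfrc* sites lie on the plus strand at chr16:32631219-32631247, chr16:32631598-32631626, chr16:32631663-32631691 and chr16:32631710-32631738, in 1 of its 3 annotated coding transcripts. Of the listed genes, 0.195% held such a match in a 5′ UTR (23 of 11793) and 0.838% held one in a 3′ UTR (99 of 11813). *Tfrc* was the 1 gene with 4 matches in its 3′ UTR, while the other 98 genes had 1. No match was found in the annotated UTRs of *Slc11a2*, *Slc11a1*, *Lcn2*, *Mt1*, *Mt2* or *Ireb2*. A match needed both the letters and the full pairing, so a hairpin with imperfect pairing would not be counted. The absence of a match thus does not show that these genes lack an IRE.

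The metallothionein promoters are shown because both genes passed the test as higher at 4 hr and they sit side by side on chromosome 8. RefSeq promoter windows on GRCm38.p6, from 250 bases before to 50 bases after the listed start, were searched on both strands for TGCNCNC with A or G at the fourth position, the core of the metal response element; matches are in capitals.
Mt1 promoter: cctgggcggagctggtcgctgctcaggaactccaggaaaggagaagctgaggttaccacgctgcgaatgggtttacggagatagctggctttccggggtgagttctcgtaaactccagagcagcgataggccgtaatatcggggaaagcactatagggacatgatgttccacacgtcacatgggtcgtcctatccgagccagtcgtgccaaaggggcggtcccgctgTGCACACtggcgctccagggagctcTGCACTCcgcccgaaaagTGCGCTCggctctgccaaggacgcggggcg
Mt2 promoter: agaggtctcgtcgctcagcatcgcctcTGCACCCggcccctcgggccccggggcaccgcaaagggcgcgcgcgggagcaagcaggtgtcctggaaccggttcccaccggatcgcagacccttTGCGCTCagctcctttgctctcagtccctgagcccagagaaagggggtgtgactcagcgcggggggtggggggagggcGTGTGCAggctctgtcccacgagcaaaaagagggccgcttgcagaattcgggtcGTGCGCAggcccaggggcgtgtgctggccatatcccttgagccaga

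The *Mt1* window, at chr8:94178839-94179138 on the plus strand, held 3 matches, and the *Mt2* window, at chr8:94172368-94172667 on the plus strand, held 4. Of 12644 promoters of listed genes in this table, 35.0% had at least 1 match, 3.14% had 3 or more and 0.862% had 4 or more. Of the 8 members with an entry, 1 of the *Tfrc* windows had 2 matches and the windows of *Slc11a1*, *Fth1*, *Ftl1*, *Lcn2* and *Ireb2* had none. A match is a description of letters, not evidence of binding. The counts hold for these windows only, since the start sites used in these cells were not examined.

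Reads on listed genes numbered 9525979 to 12439960 per library. Macrophage markers summed to 16754 to 27848 counts per 1000000 reads (CPM) with 8 of 8 listed, most of it *Lyz2* (9006 to 20943 CPM). *Adgre1* stood at 1040 to 3054 CPM. B cell, T cell, eosinophil, mast cell and mesothelial markers summed to at most 18.5 CPM in any library. None of the 8 erythroid markers, which include the globins, was listed, and 3 of 10 neutrophil markers were (*S100a8*, *Camp*, *Mmp8*). A median over 79 ribosomal protein genes differed between libraries, relative to the mean of all libraries on the log2 scale. It ran from -1.06 in S513A at 8 hr (replicate 1) to 0.65 in S513A at 4 hr (replicate 2). Within a group it was -1.06 and -0.11 in S513A at 8 hr, and 0.15 and 0.33 in WT at 8 hr. *Ftl1*, *Mt1*, *Mt2* and *Fth1* moved with this median, and the values are given with those genes. Levels were read at the mRNA only, and in a bulk sample fewer cells of a type and less RNA per cell cannot be told apart. The labels do not say that libraries of a group came from separate mice, so p-values measure the spread between these libraries, which may be technical.

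In unstimulated cells the members spanned more than 4 orders of magnitude of CPM per kb of annotated exon, over the 4 libraries of both genotypes. *Ftl1* (7499 ± 1444, SD, n = 4) and *Fth1* (7406 ± 1479) were highest, and their ranges overlapped on this scale. *Slc11a1* followed at 218 ± 11.7 CPM per kb, then *Mt1* at 83.6 ± 23.2, *Tfrc* at 49.1 ± 2.14, *Slc11a2* at 20.1 ± 1.00, *Mt2* at 12.6 ± 4.25, *Ireb2* at 6.46 ± 0.41 and *Lcn2* at 3.27 ± 0.67. *Slc40a1* was lowest at 0.474 ± 0.124 CPM per kb. From *Fth1* downwards, no range of the 4 libraries overlapped that of the next gene on this scale. The length used was the union of annotated exons, which exceeds the longest coding transcript unevenly. It was 3.469 kb beside 1494 bases for *Fth1*, 1.34 kb beside 968 for *Ftl1* and 2.623 kb beside 915 for *Lcn2*. The order of close genes and the overlaps thus depend on the length chosen. In CPM alone, every *Fth1* library at 0 hr was above every *Ftl1* library. Exon lengths are those of the annotation and may differ from the lengths the authors counted over.

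**Figure D1:**
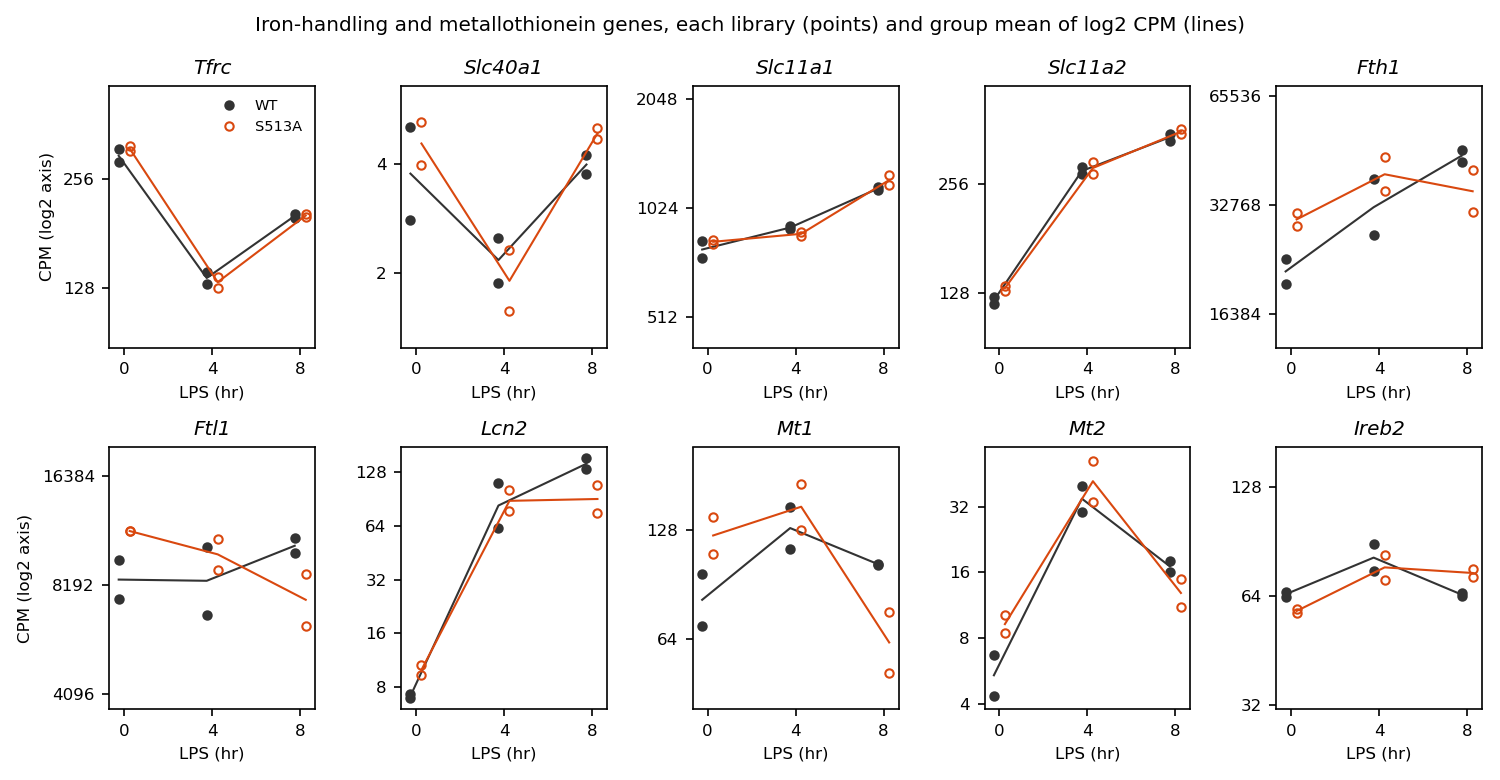
CPM (log2 axis, scaled for each gene) of the 10 genes against hours of LPS, with each library as a point, WT filled and S513A open, and lines joining group means of log2 CPM. *Tfrc* lies at 285 to 316 CPM at 0 hr, 128 to 142 CPM at 4 hr and 199.9 to 205 CPM at 8 hr in both genotypes.

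After 4 hr of LPS, averaged over the genotypes, 6 members were higher than at 0 hr (*Slc11a2*, *Fth1*, *Lcn2*, *Mt1*, *Mt2*, *Ireb2*) and 2 were lower (*Tfrc*, *Slc40a1*), at an adjusted p under 0.05 in limma. Across all genes tested, 29.1% were higher and 26.7% lower at this time. At 8 hr, 5 members were higher (*Slc11a1*, *Slc11a2*, *Fth1*, *Lcn2*, *Mt2*) against 24.5% of all genes, and 1 was lower (*Tfrc*) against 21.6%. Between 4 and 8 hr, 4 members rose (*Tfrc*, *Slc40a1*, *Slc11a1*, *Slc11a2*) and 2 fell (*Mt1*, *Mt2*), where 12.8% of all genes rose and 12.8% fell. The median log2 difference of the members was 0.41 at 4 hr and 0.37 at 8 hr, beside 0.02 and -0.000702 over all genes tested.

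**Figure D2:**
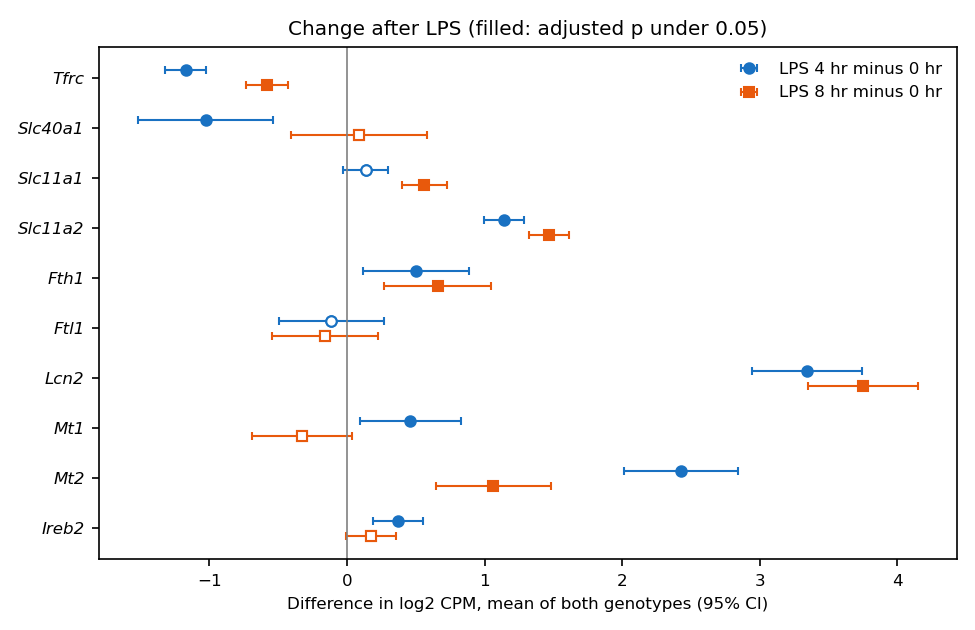
Difference in log2 CPM from 0 hr for each gene after 4 hr (circles) and 8 hr (squares) of LPS, averaged over both genotypes, with 95% confidence intervals; filled symbols passed an adjusted p of 0.05. *Lcn2* has the largest rise at both times (3.35 and 3.75) and *Tfrc* the largest fall at 4 hr (-1.17).

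The mRNA of the transferrin receptor fell to less than its unstimulated level at 4 hr and came back in part at 8 hr. *Tfrc* (chr16:32608920-32632794) stood at 285 and 309 CPM in the WT libraries at 0 hr, 131 and 142 CPM at 4 hr, and 205 and 199.9 CPM at 8 hr. In S513A it stood at 305 and 316 CPM at 0 hr, 138 and 128 CPM at 4 hr, and 205 and 201 CPM at 8 hr. The 3 times did not overlap in either genotype, and at each time the libraries of both genotypes lay within a narrow band. The log2 difference from 0 hr was -1.17 at 4 hr (95% CI -1.32 to -1.02, adjusted p = 1.14e-07) and -0.58 at 8 hr (95% CI -0.73 to -0.43, adjusted p = 3.98e-05), and the rise from 4 to 8 hr was 0.59 (adjusted p = 0.000163). A fold of 0.443 at 4 hr thus became 0.668 at 8 hr.

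*Slc11a2*, whose product carries ferrous iron across the endosomal membrane, moved the other way from *Tfrc*. WT libraries held 119.6 and 126 CPM at 0 hr, 285 and 273 CPM at 4 hr, and 338 and 354 CPM at 8 hr. S513A libraries held 134 and 130.4 CPM at 0 hr, 295 and 274 CPM at 4 hr, and 353 and 363 CPM at 8 hr. Every library at 4 hr was above every library at 0 hr and below every library at 8 hr. The log2 rise was 1.14 at 4 hr (95% CI 1.00 to 1.29, adjusted p = 1.07e-07) and 1.47 at 8 hr (95% CI 1.32 to 1.61, adjusted p = 2.09e-08), with 0.32 between 4 and 8 hr (adjusted p = 0.00496). *Slc11a2* and *Slc11a1* belong to 1 transporter family but not to 1 time course.

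*Slc11a1*, the phagosomal transporter, is a gene for which C57BL/6 mice are known to carry an allele whose protein does not function, so its mRNA here is no measure of transport. WT libraries held 832 and 743 CPM at 0 hr, 896 and 912 CPM at 4 hr, and 1146 and 1173 CPM at 8 hr. S513A libraries held 817 and 835 CPM at 0 hr, 881 and 857 CPM at 4 hr, and 1262 and 1186 CPM at 8 hr. The 8 hr libraries were all above the others. The log2 difference was 0.14 at 4 hr (95% CI -0.03 to 0.30, adjusted p = 0.14), which turned to -0.29 with quantile normalization (adjusted p = 0.00901) and passed as higher with length and GC trends removed (0.22, adjusted p = 0.00281). It was 0.56 at 8 hr (95% CI 0.40 to 0.73, adjusted p = 9.87e-05).

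Ferroportin mRNA was scarce, with 13 to 72 reads per library. *Slc40a1* (chr1:45908068-45926523) stood at 5.05 and 2.81 CPM in WT at 0 hr, 2.51 and 1.88 CPM at 4 hr, and 3.75 and 4.25 CPM at 8 hr. In S513A it stood at 5.22 and 3.98 CPM at 0 hr, 2.31 and 1.57 CPM at 4 hr, and 4.70 and 5.03 CPM at 8 hr. All 4 libraries at 4 hr lay below the 8 others, and the 0 and 8 hr libraries overlapped. The log2 difference was -1.03 at 4 hr (95% CI -1.52 to -0.53, adjusted p = 0.00243) and 0.09 at 8 hr (95% CI -0.40 to 0.58, adjusted p = 0.778), with a rise of 1.11 between them (adjusted p = 0.00432). *Slc40a1* and *Tfrc*, exporter and importer, were thus both lower at 4 hr.

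Of the ferritin chains, *Fth1*, the heavy chain that oxidises ferrous iron, was higher after LPS on the average of the genotypes. *Ftl1*, the light chain, did not pass the test at any time. *Fth1* stood at 19819 and 23197 CPM in WT at 0 hr, 38581 and 26952 CPM at 4 hr, and 43114 and 46458 CPM at 8 hr. In S513A it stood at 28589 and 31155 CPM at 0 hr, 35663 and 44348 CPM at 4 hr, and 31252 and 40765 CPM at 8 hr. Within each genotype every library after LPS was above every 0 hr library, with narrow gaps except in WT at 8 hr. The averaged log2 rise was 0.50 at 4 hr (95% CI 0.11 to 0.89, adjusted p = 0.0311) and 0.66 at 8 hr (95% CI 0.27 to 1.05, adjusted p = 0.01). By genotype, the limma rise at 4 hr was 0.59 in WT (adjusted p = 0.0816) and 0.41 in S513A (adjusted p = 0.208). At 8 hr it was 1.06 in WT (adjusted p = 0.00722) and 0.26 in S513A (adjusted p = 0.437). The 4 hr call was lost when any 1 of 5 libraries was left out (WT at 0 hr replicate 1, WT at 4 hr replicate 1, S513A at 0 hr replicates 1 and 2, S513A at 4 hr replicate 2), with adjusted p values of 0.0523 to 0.11. Quantile normalization cannot show this gene's rise, since it gives the highest gene of each library the same value and *Fth1* ranked first in 11 of the 12 libraries.

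*Ftl1* stood at 7496 and 9598 CPM in WT at 0 hr, 10458 and 6773 CPM at 4 hr, and 10038 and 11018 CPM at 8 hr. In S513A it stood at 11574 and 11526 CPM at 0 hr, 9035 and 10972 CPM at 4 hr, and 6318 and 8805 CPM at 8 hr. In WT both 8 hr libraries were above both 0 hr libraries, and in S513A both were below them. The averaged log2 difference was -0.11 at 4 hr (95% CI -0.50 to 0.27, adjusted p = 0.611) and -0.16 at 8 hr (95% CI -0.54 to 0.22, adjusted p = 0.485). Both ferritin genes have processed copies elsewhere in the genome, and reads shared with them may be split by the counting.

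*Lcn2* had the largest rise of the members. WT libraries held 6.93 and 7.35 CPM at 0 hr, 111 and 62.6 CPM at 4 hr, and 153 and 133 CPM at 8 hr. S513A libraries held 9.35 and 10.7 CPM at 0 hr, 77.2 and 101 CPM at 4 hr, and 75.2 and 109 CPM at 8 hr. No library at 0 hr came near those after LPS, and the 4 and 8 hr libraries overlapped in S513A but not in WT. The log2 difference was 3.35 at 4 hr (95% CI 2.94 to 3.75, adjusted p = 6.53e-08), a fold of 10.2, and 3.75 at 8 hr (95% CI 3.35 to 4.15, adjusted p = 3.67e-08), a fold of 13.5. The difference between 4 and 8 hr, 0.41, did not pass (adjusted p = 0.131), but passed without replicate 1 of WT at 4 hr (0.61, adjusted p = 0.0123) and with length and GC trends removed (0.48, adjusted p = 0.00253).

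Lipocalin-2 is also a granule protein of neutrophils, so their markers are given beside it. The 3 listed markers summed to 660 to 745 CPM in the 4 unstimulated libraries, 445 to 689 CPM at 4 hr and 362 to 575 CPM at 8 hr, most of it *Mmp8* (329 to 725 CPM). *Mmp8* fell by 0.45 at 4 hr (adjusted p = 0.0125) and 0.79 at 8 hr (adjusted p = 0.000524). The other markers moved in the direction of *Lcn2*. *Camp* stood at 0.0348 to 0.346 CPM at 0 hr, where the lowest is the value of 0 reads, 1.36 to 2.31 CPM at 4 hr (adjusted p = 0.0002) and 1.77 to 3.48 CPM at 8 hr (adjusted p = 0.000107). *S100a8* stood at 20.2 to 54.1 CPM at 0 hr, 43.6 to 106 CPM at 4 hr and 31.8 to 99.0 CPM at 8 hr, with log2 differences of 0.73 (adjusted p = 0.0715) and 0.86 (adjusted p = 0.0456). The other 7 markers (*S100a9*, *Ly6g*, *Ngp*, *Cxcr2*, *Retnlg*, *Elane*, *Mpo*) are not in the table. The part of neutrophils in the *Lcn2* values was not tested.

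Metallothionein mRNA was highest at 4 hr on average, clearly so for *Mt2*. It stood at 4.35 and 6.73 CPM in WT at 0 hr, 39.9 and 30.4 CPM at 4 hr, and 16.1 and 18.1 CPM at 8 hr. In S513A it stood at 10.2 and 8.43 CPM at 0 hr, 33.7 and 52.0 CPM at 4 hr, and 11.1 and 14.99 CPM at 8 hr. The times did not overlap within either genotype. The log2 difference of *Mt2* was 2.43 at 4 hr (95% CI 2.01 to 2.84, adjusted p = 1.11e-06) and 1.06 at 8 hr (95% CI 0.65 to 1.48, adjusted p = 0.00082), with a fall of 1.36 from 4 to 8 hr (adjusted p = 0.00048). By genotype, the limma difference at 8 hr was 1.66 in WT (adjusted p = 0.0007) and 0.47 in S513A (adjusted p = 0.18).

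*Mt1* started from a higher level and moved less. It stood at 69.8 and 97.2 CPM in WT at 0 hr, 149 and 113 CPM at 4 hr, and 103.1 and 103.5 CPM at 8 hr. In S513A it stood at 139.5 and 110.2 CPM at 0 hr, 128 and 172 CPM at 4 hr, and 51.7 and 76.3 CPM at 8 hr. The S513A libraries at 8 hr were below all S513A libraries of the other times, while the WT libraries at 8 hr lay between those at 0 and 4 hr. The averaged log2 difference was 0.46 at 4 hr (95% CI 0.10 to 0.83, adjusted p = 0.0345), -0.33 at 8 hr (95% CI -0.69 to 0.04, adjusted p = 0.133) and -0.79 between 4 and 8 hr (adjusted p = 0.00564). The 4 hr call was lost when any 1 of 6 libraries was left out (replicate 1 of WT at 0 hr and at 4 hr, both of WT at 8 hr, and replicate 2 of S513A at 0 hr and at 4 hr), with adjusted p values of 0.0512 to 0.136, while the 8 hr difference passed without replicate 2 of S513A at 8 hr (-0.47, adjusted p = 0.0378), with quantile normalization (-0.51, adjusted p = 0.02) and with length and GC trends removed (-0.27, adjusted p = 0.0189). The averaged 4 hr call was also lost with quantile normalization (0.17, adjusted p = 0.383) and with a prior without a trend (0.46, adjusted p = 0.0627). Within the genotypes, the limma difference at 4 hr was 0.66 in WT (adjusted p = 0.0436) and 0.26 in S513A (adjusted p = 0.4). At 8 hr it was 0.33 in WT (adjusted p = 0.307) and -0.98 in S513A (adjusted p = 0.00713). *Mt1*, *Mt2* and *Mt3* are close paralogs, and reads shared between them are uncertain.

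*Ireb2*, which encodes the IRP2 sensor, moved little. WT libraries held 63.5 and 65.5 CPM at 0 hr, 74.6 and 88.9 CPM at 4 hr, and 63.8 and 65.0 CPM at 8 hr. S513A libraries held 58.7 and 57.3 CPM at 0 hr, 82.7 and 70.8 CPM at 4 hr, and 75.9 and 71.8 CPM at 8 hr. The 4 hr libraries were above the 0 hr libraries in both genotypes. The averaged log2 difference was 0.37 at 4 hr (95% CI 0.19 to 0.55, adjusted p = 0.00297) and 0.17 at 8 hr (95% CI -0.01 to 0.36, adjusted p = 0.113). The 4 hr call did not hold under quantile normalization (0.18, adjusted p = 0.0761). Within the genotypes, the limma difference at 8 hr was -0.00276 in WT (adjusted p = 0.987) and 0.35 in S513A (adjusted p = 0.0355). The contrast between these 2 values did not pass in limma (adjusted p = 0.255).

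Between the genotypes, none of the 10 genes passed the test at any time. Of all genes, 0.0337% were called in unstimulated cells, 0.0168% after 4 hr and 0.0337% after 8 hr, 0.0673% were called on the mean of the 3 times, and 0% passed for the genotype by LPS interaction at 4 hr and likewise 0% at 8 hr. At an unadjusted p under 0.05, 2 members passed at 0 hr (*Mt1*, *Mt2*), 0 at 4 hr, 2 at 8 hr (*Lcn2*, *Mt1*) and 0 on the mean, beside 949, 833, 1487 and 798 of all genes. For the interaction, 0 members passed unadjusted at 4 hr and 5 at 8 hr, beside 144 and 2405 of all genes.

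For *Tfrc*, the known Regnase-1 target, the S513A minus WT difference was 0.07 at 0 hr (95% CI -0.15 to 0.28), -0.04 at 4 hr (95% CI -0.25 to 0.17) and 0.00 at 8 hr (95% CI -0.21 to 0.22) in log2 CPM. Averaged over the times it was 0.01 (95% CI -0.11 to 0.13, adjusted p = 0.97). The interval of the average is the narrowest of any member but *Slc11a2*, whose average difference was 0.06 (95% CI -0.06 to 0.18). *Slc11a1* differed by 0.03 (95% CI -0.10 to 0.16) and *Ireb2* by -0.01 (95% CI -0.16 to 0.13). Intervals were wider for *Slc40a1* (0.12, 95% CI -0.28 to 0.53), *Fth1* (0.15, 95% CI -0.17 to 0.47), *Ftl1* (0.06, 95% CI -0.25 to 0.38), *Lcn2* (-0.03, 95% CI -0.35 to 0.30), *Mt1* (0.02, 95% CI -0.28 to 0.32) and *Mt2* (0.21, 95% CI -0.13 to 0.55).

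**Figure D3:**
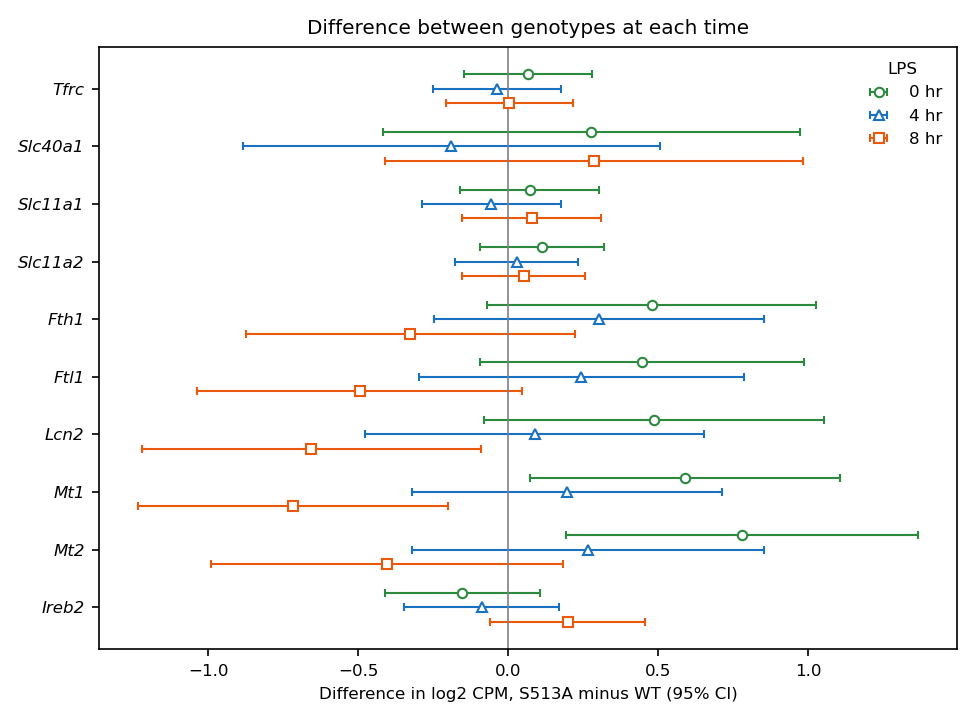
S513A minus WT difference in log2 CPM of each gene at 0 hr (circles), 4 hr (triangles) and 8 hr (squares) of LPS, with 95% confidence intervals; open symbols did not pass an adjusted p of 0.05. *Tfrc*, *Slc11a1* and *Slc11a2* lie near 0 at every time, while *Fth1*, *Ftl1*, *Lcn2*, *Mt1* and *Mt2* lie above 0 at 0 hr and below 0 at 8 hr.

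A group of 5 genes, singled out after their values were seen, shared a pattern that did not pass the test. *Fth1*, *Ftl1*, *Lcn2*, *Mt1* and *Mt2* had both S513A libraries above both WT libraries at 0 hr and below both at 8 hr. Counting all members, the S513A libraries lay wholly above WT in 6 and wholly below in 1 at 0 hr, where 30.4% of all genes lay above and 27.1% below. At 8 hr they lay above in 3 and below in 5, beside 27.9% and 25.8% of all genes. At 4 hr they lay above in 0 and below in 1, beside 14.3% and 13.9%. The S513A minus WT difference of *Mt1* was 0.59 at 0 hr (95% CI 0.07 to 1.11, adjusted p = 0.586) and -0.72 at 8 hr (95% CI -1.23 to -0.20, adjusted p = 0.395). That of *Mt2* was 0.78 at 0 hr (95% CI 0.19 to 1.37) and -0.40 at 8 hr (95% CI -0.99 to 0.18), and that of *Lcn2* was 0.49 at 0 hr (95% CI -0.08 to 1.05) and -0.66 at 8 hr (95% CI -1.22 to -0.09).

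The interaction at 8 hr, the LPS difference in S513A minus that in WT, was -1.31 for *Mt1* (95% CI -2.04 to -0.58, adjusted p = 0.193), -1.18 for *Mt2* (adjusted p = 0.193), -1.14 for *Lcn2* (adjusted p = 0.193), -0.94 for *Ftl1* (adjusted p = 0.204) and -0.80 for *Fth1* (adjusted p = 0.239). For *Tfrc* it was -0.06 (95% CI -0.36 to 0.24), for *Slc11a1* 0.01 (95% CI -0.32 to 0.33) and for *Slc11a2* -0.06 (95% CI -0.35 to 0.23). Leaving out replicate 2 of S513A at 8 hr brought the interaction of *Mt1* to -1.59 with an adjusted p of 0.0306, in a fit that called 651 of 11885 genes where the fit on all libraries called 0. Of all genes, 5.26% were lower in it (625 genes), so the call is no result about *Mt1*. The single library left in that group, the one with the lowest ribosomal protein median (-1.06), was assumed to vary like the others.

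Of these genes, *Ftl1*, *Mt1*, *Mt2* and, less closely, *Fth1* moved with the ribosomal protein genes from library to library. The median of the 79 ribosomal protein genes was -0.69 and -0.02 in WT at 0 hr, 0.53 and 0.27 in S513A at 0 hr, 0.15 and 0.33 in WT at 8 hr, and -1.06 and -0.11 in S513A at 8 hr, on the log2 scale from the mean of all libraries. In *Ftl1*, *Mt1* and *Mt2* the library of each pair with the higher ribosomal median was also the higher one in 6 of 6 groups, in *Fth1* and *Slc11a2* in 5, in *Lcn2* and *Slc40a1* in 4, in *Ireb2* in 3 and in *Tfrc* and *Slc11a1* in 1. Of the other genes tested, 8.13% had the same order in all 6 groups and 21.7% in 5 or more. With each library's trend on transcript length and GC content removed, an alternative chosen after seeing the data, the 8 hr interaction was -0.64 for *Mt1* (adjusted p = 0.215), -0.24 for *Mt2*, -0.40 for *Lcn2*, -0.37 for *Ftl1* and -0.41 for *Fth1*. In the same fit the S513A minus WT difference of *Mt2* was 0.34 at 0 hr and turned to 0.10 at 8 hr, that of *Mt1* was 0.29 and -0.35, and that of *Lcn2* 0.15 and -0.25. The averaged LPS difference of *Mt2* was 2.40 at 4 hr and 1.17 at 8 hr, that of *Lcn2* 3.35 and 3.83, and that of *Tfrc* -1.33 and -0.65. The part of the ribosomal shift in the genotype differences was not tested.

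**Figure D4:**
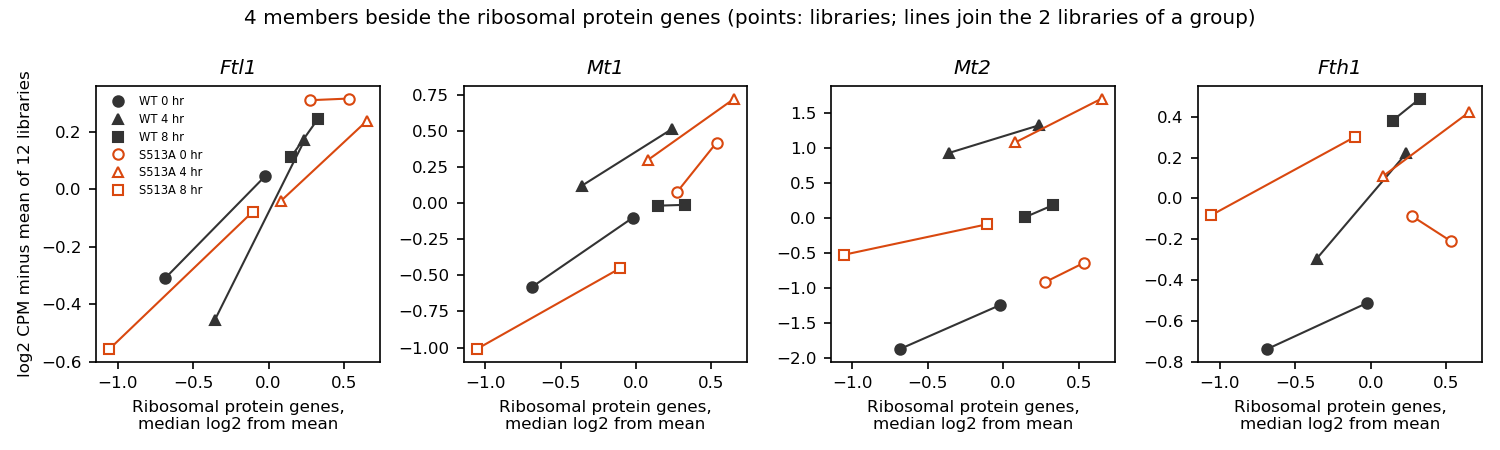
Log2 CPM of *Ftl1*, *Mt1*, *Mt2* and *Fth1* minus the mean of the 12 libraries, against the median of 79 ribosomal protein genes on the same scale, with lines joining the 2 libraries of a group. All lines rise for *Ftl1*, *Mt1* and *Mt2*, and all but the S513A 0 hr line rise for *Fth1*.

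Other genes of iron uptake and transport changed in both directions. Of 11 tested, 4 rose and 3 fell at 4 hr, beside 29.1% and 26.7% of all genes. At 8 hr 4 rose and 5 fell, beside 24.5% and 21.6% of all genes. The largest rises at 4 hr were those of *Slc39a14* (log2 difference 2.82, adjusted p = 7.34e-09), a plasma membrane importer of zinc and of iron not bound to transferrin, and *Cp* (2.38, adjusted p = 9.25e-08), the ferroxidase ceruloplasmin that works with ferroportin. The largest falls were those of *Steap3* (-2.05), the endosomal ferrireductase that acts between the transferrin receptor and DMT1, and *Hfe* (-1.39), a partner of the transferrin receptor. At 8 hr *Cp* (2.63) and *Slc25a37* (2.28), the mitochondrial iron importer mitoferrin-1, led the rises, and *Hfe* (-1.56) and *Steap3* (-1.35) led the falls. *Tfrc* and *Steap3* were thus both lower at both times.

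Among 9 genes of iron sensing, ferritin turnover and iron-sulfur assembly, 3 rose and 5 fell at 4 hr. Of all genes, 29.1% rose and 26.7% fell at that time. At 8 hr 1 rose and 1 fell, beside 24.5% and 21.6% of all genes. *Fbxl5*, whose product marks IRP2 for degradation, rose by 0.66 at 4 hr (adjusted p = 0.000138) and 0.54 at 8 hr (adjusted p = 0.000786), beside the 0.37 and 0.17 of *Ireb2*. *Pcbp2*, an iron chaperone, rose by 0.43 at 4 hr. *Bach1*, a heme-sensing repressor of *Hmox1* and the ferritin genes, was lower at 4 hr (-0.76) and 8 hr (-0.62).

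Of 12 heme genes tested, 3 rose and 4 fell at 4 hr, beside 29.1% and 26.7% of all genes. At 8 hr 6 rose and 3 fell, beside 24.5% and 21.6% of all genes. The largest rises at 4 hr were those of *Spic* (1.03, adjusted p = 0.00172), a transcription factor of iron-recycling macrophages, and *Alas1* (1.02), the first enzyme of heme synthesis. At 8 hr they were those of *Spic* (1.84) and *Hmox1* (1.62, adjusted p = 8.2e-08), the heme oxygenase that frees iron from heme. *Flvcr1*, a heme exporter, was lower at 4 hr (-2.05) and 8 hr (-1.08). *Lrp1*, the receptor for heme bound to hemopexin, was lower on average (-0.74 and -0.69), but its libraries were uneven. In WT it stood at 3016 and 3049 CPM at 0 hr, 1258 and 2917 CPM at 4 hr, and 1399 and 1179 CPM at 8 hr. S513A libraries stood at 1974 and 1813 CPM at 0 hr, 1274 and 903 CPM at 4 hr, and 2036 and 1459 CPM at 8 hr, where the 0 and 8 hr libraries overlapped.

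Of 14 genes of zinc transport and metallothionein control, 8 rose and 2 fell at 4 hr, beside 29.1% and 26.7% of all genes. At 8 hr 5 rose and 3 fell, beside 24.5% and 21.6% of all genes. *Slc30a6*, a transporter of zinc into the Golgi, was highest among the rises at 4 hr (1.31) and 8 hr (0.86), followed by *Slc30a4* at 4 hr (1.00) and the importer *Slc39a1* at 8 hr (0.55). The falls were those of *Slc39a10*, an importer (-0.34 at 4 hr and -0.64 at 8 hr), *Slc30a5* at 4 hr (-0.18), and *Mt3* at 8 hr (-0.60, adjusted p = 0.0334), a metallothionein best known from brain. The *Mt3* difference lay in S513A, where its libraries stood at 25.1 and 13.5 CPM at 0 hr and 6.43 and 9.15 CPM at 8 hr. In WT they stood at 6.45 and 7.89 CPM at 0 hr and 7.83 and 7.11 CPM at 8 hr, without a fall. The interaction of *Mt3* at 8 hr did not pass. In none of these 4 lists did a gene pass between the genotypes or for the interaction.

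**Figure D5:**
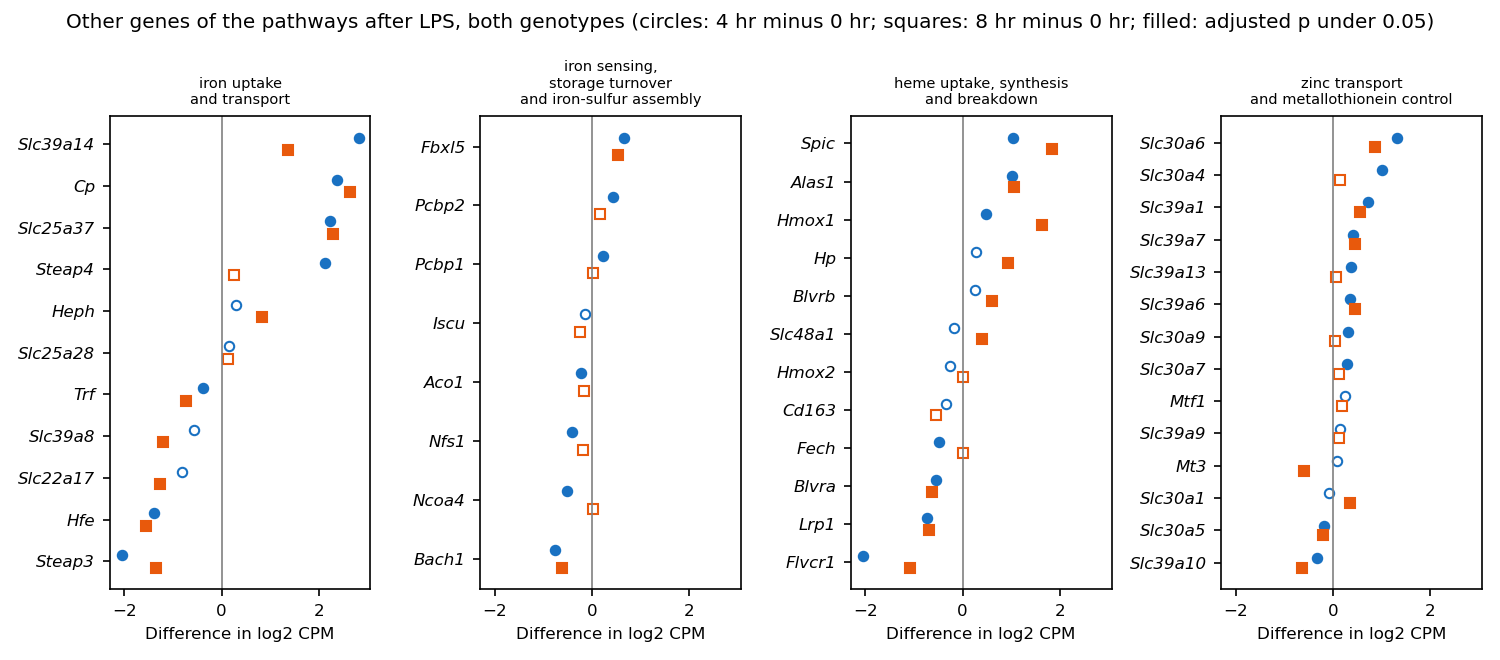
Difference in log2 CPM from 0 hr, averaged over both genotypes, of tested genes of 4 pathway lists, after 4 hr (circles) and 8 hr (squares) of LPS; filled symbols passed an adjusted p of 0.05. *Slc39a14* has the largest rise at 4 hr (2.82) and *Flvcr1* and *Steap3* the largest falls (-2.05 each).

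For 4 members the genes with the most similar course over the 12 libraries were sought, by the root mean square difference of log2 CPM after each gene's mean was removed. *Coro1c* (0.06) and *Parp1* (0.08) were nearest to *Tfrc*. The nearest to *Slc40a1* were *Slc8b1* (0.26), *Pgm2* (0.26) and *Sgk1* (0.27), and the nearest to *Lcn2* were *Xaf1* (0.32), *Ptges* (0.32) and *Phf11d* (0.35). *Hmgb2* (0.16), *Sub1* (0.17) and *Gm12174* (0.17) were nearest to *Mt1*. The distances for *Tfrc* are several times smaller than those for *Lcn2*, whose libraries vary more within a group.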

How the data were processed

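PECs of WT and S513A mice were profiled by RNA-seq of polyA RNA (NEBNext Ultra kit, Illumina NextSeq). Per the labels, reads were mapped on mm10 with HISAT2 and counted with featureCounts 1.6.3, in unstranded mode by the study's methods. The authors deposited log2 CPM values, the log2 of reads plus 0.5 over an effective library size. Whole reads were recovered with a largest departure of 0.00144 read. The normalization program, gene annotation and gene filter are not given in the sources used here. Without strand, reads of overlapping antisense genes cannot be told apart.

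The test was limma 3.58.1 (R 4.3.3), applied to the log2 CPM of genes that reached 1 CPM in 2 or more libraries, with 6 group means and a prior that varies with the mean level. Contrasts were LPS differences averaged over the genotypes and within each, S513A minus WT at each time and averaged, and the interactions. Tests were two-sided, with Benjamini-Hochberg adjustment over all genes tested and a threshold of 0.05. The script was tested on simulated data. The members, the pathway lists and the marker lists were chosen with earlier results of these data known. All members are named. Of each pathway list, the 2 largest rises and the 2 largest falls past the threshold at 4 and 8 hr are named, and for *Tfrc*, *Slc40a1*, *Lcn2* and *Mt1* the 3 genes nearest in course, except that 2 genes this rule selects are not reported here. Positions, lengths and UTRs came from GENCODE vM21, in which 98.1% of listed genes were matched, and promoters from RefSeq. Protein sequences were not used here. Intervals of log2 differences come from the spread between libraries. Alternatives were other filters, a further pseudocount, other scalings, voom weights, other priors, only the libraries compared, replicate blocks, each library left out, and, added after seeing the data, removal of length and GC trends and a crossed block. Figures were drawn with matplotlib 3.10.9.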

Additional observations from a re-analysis of the deposited data

Results flagged for a closer look

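*Ftl1* and *Mt1* were singled out because, from 0 to 8 hr of LPS, every library of WT moved one way and every library of S513A the other. For *Ftl1* the interaction was -0.94 in log2 CPM (limma, adjusted p = 0.204), with both WT libraries higher and both S513A libraries lower at 8 hr than at 0 hr. For *Mt1* it was -1.31 (limma, adjusted p = 0.193). The tests of the difference did not pass the threshold. The ribosomal protein median of the libraries moved the same way, up from 0 to 8 hr in WT and down in S513A, and its part in these values was not tested.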

How the results depend on the processing

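With 2 libraries per group, differences of low or variable genes such as *Slc40a1*, *Lcn2* and *Mt2* carry wide intervals. Over the 9 comparisons, 1065 member values kept their side of the threshold when 1 library was left out (4 calls gained, 11 lost). In the other alternatives 1110 values did (5 gained, 5 lost, 1 turned). Values past the threshold in both fits also kept their direction. The count of members called stayed within 1.5 times the reported one throughout, except that the interaction at 8 hr had 0 to 1 members called when 1 library was left out, the 1 being *Mt1* without replicate 2 of S513A at 8 hr, a fit that moved the count over all genes from 0 to 651 (26 higher, 625 lower). The difference that turned was that of *Slc11a1*, which at 4 hr against 0 hr was -0.29 under quantile normalization (adjusted p = 0.00901), and -0.34 in S513A alone (adjusted p = 0.034), a setting that moves the median of all genes at 4 hr to -0.06. Quantile normalization also took the calls of *Mt1* at 4 hr (0.17) and *Ireb2* at 4 hr (0.18), for which the cause was not tested, and those of *Fth1* (0.23 at 4 and 8 hr), whose value it fixes in the 11 libraries where the gene ranks first. A prior without a trend took the call of *Mt1* at 4 hr as well (0.46, limma, adjusted p = 0.0627). Sign changes among values that passed in neither fit were not counted as turns and numbered 80 of 1693. Deviations of same-numbered libraries correlated in some pairs of groups and ran against each other in others, from r = -0.75 (WT 4 hr with S513A 8 hr) to 0.76 (S513A 4 hr with 8 hr), and between the genotypes were -0.25 at 0 hr, -0.74 at 4 hr and 0.36 at 8 hr. Since not every pair was above 0.1, the numbers are not treated as pairs. With the replicate block, *Tfrc* fell by 1.17 at 4 hr and 8 members were called at 4 hr, as without it, and over all genes 3369 rose and 3093 fell in place of 3461 and 3174. The block called 2 genes in place of 4 between the genotypes at 0 hr and 1 in place of 2 at 4 hr. With the crossed block 3374 rose and 3096 fell. Over all genes, S513A against WT at 0 hr called 4 genes as reported, 693 with only the libraries compared, 2 with the filter of 5 CPM, and 0 with voom weights, a further pseudocount or a prior without a trend; at 4 hr it called 0 to 3 and at 8 hr 1 to 5 under the alternatives that left out no replicate. The average of the times called 8 as reported, 30 with the length and GC trend removed, 5 with a prior without a trend and 3 with the filter of 5 CPM. None of these included a member.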
